A study of Sorghum bicolor with 14 samples.

Results

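Both ends of a sorghum seed series were compared, the 30 DAP seed (30 days after pollination, DAP) and the unpollinated pistil taken 1-2 days before pollination (1-2 DBP). A gene entered when its deposited level was at least 1 TPM in either column (a share of all transcripts, after correction for gene length, on a scale with a fixed total), which 22256 of the 31337 genes met. Both groups came from plants of the cultivar M35-1 of Sorghum bicolor raised in an open field, without any listed treatment. The labels list 2 libraries of seed for 30 DAP and 3 libraries of pistil for 1-2 DBP, and do not state if replicate libraries are from different plants. The full series has 5 stages and 14 libraries, with 0-2, 10 and 20 DAP between the ends. The deposited table gives a single TPM value for each gene at each stage, so no value below has a replicate error and no difference below was tested. The accession numbers of the 30 DAP and 1-2 DBP libraries lie in separate blocks, and a technical difference between the blocks and the difference between the stages cannot be told apart. The 0-2 DAP libraries lie in the block of 1-2 DBP, and those of 10 and 20 DAP in the block of 30 DAP. Any step between 0-2 and 10 DAP below thus coincides with the change of block.

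The pistil of a grass is the female part of the floret, an ovary with its ovule, style and feathery stigmas, and it is living, hydrated floral tissue. A cereal grain late in development is mostly starchy endosperm with an aleurone layer and an embryo. Late in maturation such grains lose water, the starchy endosperm dies, and embryo and aleurone are known for storing transcripts of protective and oil body proteins that can persist in the dry seed. Gene names are not part of the table, and 0 of its IDs matched the RefSeq gene table of the Sorghum_bicolor_NCBIv3 assembly. The genes are therefore given by ID, without a function, and the labelled tissues could not be checked against marker genes. In such whole organs, fewer cells of a type and less RNA per cell cannot be told apart.

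Of the 22256 genes, 14783 had at least 1 TPM at both ends, 1085 at 30 DAP alone and 6388 at 1-2 DBP alone. The larger of the 2 values was 1.0002 TPM in the gene just inside the limit and 0.99987 TPM in the gene just outside. A further 2148 genes stayed under 1 TPM at both ends and reached it at a stage between them, and 115 of these reached 100 TPM there. These were not included. The genes included held 99.9% of the 30 DAP total and 99.8% of the 1-2 DBP total.

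The 30 DAP seed had its TPM in far fewer genes than the pistil. The most abundant gene held 4.99% of the 30 DAP total and 0.845% of the 1-2 DBP total. The 100 most abundant genes of each stage held 56.6% at 30 DAP and 16.9% at 1-2 DBP, and the 1000 most abundant held 82.4% and 44.1%, in the same order of stages. At 30 DAP, 66 genes were enough to hold 50% of all TPM, against 1416 genes at 1-2 DBP. Levels of 10000 TPM or more were seen in 15 genes at 30 DAP and in 0 genes at 1-2 DBP, and levels of 1000 TPM or more in 138 and 68 genes. At the next step down this order turned, with 890 genes of at least 100 TPM at 30 DAP and 1902 at 1-2 DBP. The median level over the 22256 genes was 3.25 TPM at 30 DAP and 16.5 TPM at 1-2 DBP. Because TPM of a column always sums to 1000000, a larger share in some genes leaves a smaller share for the others. How much of the lower 30 DAP median goes with this was not tested.

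**Figure D1:**
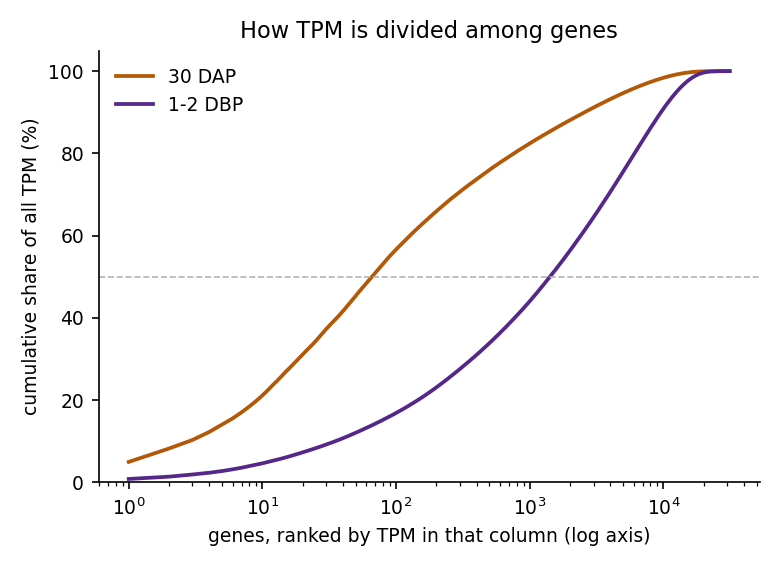
The cumulative share of all TPM (vertical axis, %) is plotted against the number of genes counted from the most abundant down (log axis), for the deposited 30 DAP and 1-2 DBP columns. The 30 DAP curve passes the dashed 50% line at 66 genes and the 1-2 DBP curve at 1416 genes.

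The levels of both ends were compared as log2(TPM + 1) of 30 DAP minus that of 1-2 DBP, and a gene was counted when the difference reached 2-fold on that scale. As deposited, 1839 genes were higher at 30 DAP, which is 8.26% of the genes compared, and 15908 were lower, which is 71.5%. The other 4509 lay within 2-fold. The median difference was -1.79 on the log2 scale, with quartiles of -2.74 and -0.83. Division by median-ratio factors, which assumes that the typical gene is alike in all stages, used 0.411 for 30 DAP and 1.88 for 1-2 DBP and so shifted the comparison by 4.58-fold. After it 5816 genes were higher at 30 DAP (26.1%) and 6355 lower (28.6%), with a median difference of -0.17. Quantile normalization, which gives every column the same distribution, left 4831 higher (21.7%) and 6224 lower (28%). Among genes past 2-fold, the share that was higher was 10.4% without rescaling, 47.8% with median-ratio factors and 43.7% with quantile normalization. Which view is nearer to transcripts per cell was not tested, since the RNA content of pistil and seed is not given.

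The 2 views bound each other. All 1839 genes that were higher as deposited were also higher after median-ratio scaling, and all 6355 that were lower after scaling were also lower as deposited, both by construction. Of the genes lower as deposited, 9326 lay within 2-fold after scaling and 227 were past 2-fold in the other direction. A further 3750 genes within 2-fold as deposited were higher after scaling. With quantile normalization added, 1824 genes were higher and 5538 lower under all 3 scalings. The 1839 genes held 69.8% of the 30 DAP total and 4.37% of the 1-2 DBP total. For the 6355 genes, selected after scaling, these shares were 1.25% and 34.1%. All 15908 genes lower as deposited held 11.3% of the 30 DAP total and 74.4% of the 1-2 DBP total. Each group was selected on the same columns, so the direction of its contrast was set by construction and is not read as a result.

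The difference varied with the level of a gene, where level and difference come from the same columns. Among 6044 genes with a mean log2(TPM + 1) under 2 over both ends, 10.3% were higher and 70.2% lower at 30 DAP as deposited. Among 9252 genes with a mean between 2 and 4 the shares were 6.36% and 78.5%. Among the 270 genes with a mean of 8 or more they were 21.1% and 24.8%, and the median difference of these was -0.13. After median-ratio scaling those 270 genes had a median difference of 2.06, with 77.8% higher and 4.07% lower, while the genes with a mean under 2 had a median of -0.65. The median of these 270 genes thus stood above that of all genes. The scaled values are for the same 270 genes with a nearly constant shift, and so add no second support. A high 30 DAP value raises both the level and the difference, so the gap is not read as a result. The pseudocount also draws the differences of low genes towards 0.

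**Figure D2:**
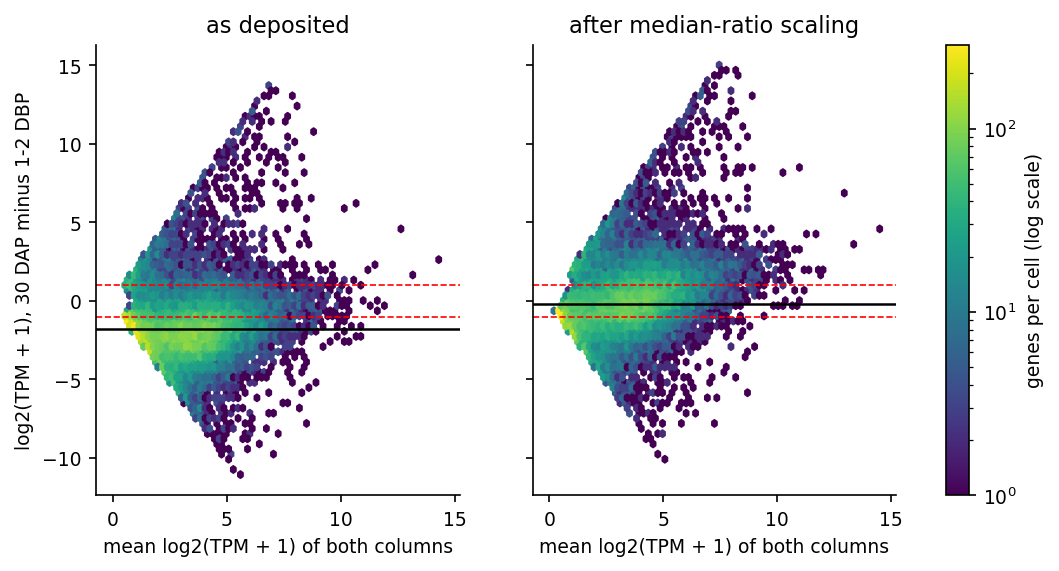
Each panel plots the log2(TPM + 1) difference, 30 DAP minus 1-2 DBP (vertical axis), against the mean log2(TPM + 1) of both columns for 22256 genes, with colour giving the number of genes per cell on a log scale. Red dashed lines mark 2-fold and the black line the median, which is -1.79 as deposited (left) and -0.17 after median-ratio scaling (right), and the 270 genes with a mean of 8 or more as deposited have their own median above that line, at -0.13 (left) and 2.06 (right).

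The stages between the ends show when the differences were first seen. They did not enter the selection as deposited, and entered that after scaling only through the median-ratio factors over 5 columns. For each gene the first stage past 2-fold from the 1-2 DBP level, in the direction seen at 30 DAP, was recorded. Of the 1839 genes higher at 30 DAP as deposited, that stage was 0-2 DAP for 267, 10 DAP for 567, 20 DAP for 318 and 30 DAP for 687. In 1340 of them the 30 DAP value was the highest of all stages, and 235, 224 and 40 had their highest value at 20, 10 and 0-2 DAP. The selection asks for a 30 DAP value above that of the pistil, so it favours a highest value at 30 DAP. From the pistil to 30 DAP, their summed share of TPM was 4.37, 3.32, 34.5, 56.9 and 69.8% at the 5 stages in time order. Of the 6355 genes lower after median-ratio scaling, the scaled values first passed 2-fold at 0-2 DAP in 654, 10 DAP in 2098, 20 DAP in 886 and 30 DAP in 2717. For the 5816 genes higher after scaling these counts were 355, 1823, 934 and 2704. The most frequent first stage was thus 30 DAP in the 1839 genes as deposited and in the 5816 and 6355 genes after scaling. For the 15908 genes lower as deposited the most frequent first stage was 10 DAP, with 7893 genes, against 2881 at 30 DAP. The step from 0-2 to 10 DAP is also the one between the blocks of libraries, so stage and block cannot be told apart there. All these genes were selected for being past 2-fold at 30 DAP, so that stage takes every gene not past it before. In time order the median-ratio factors were 1.88, 1.89, 1.03, 0.673 and 0.411, so the deposited level of a typical gene falls after 0-2 DAP. How much of the deposited timing goes with this was not tested.

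IDs were named by rank among genes of at least 20 TPM at the higher end. The 2 with the largest positive difference were Sobic.007G075301 and Sobic.006G167700. Sobic.007G075301 had 13643 TPM at 30 DAP and was listed at 0 at 1-2 DBP, so no fold is given, and its levels at 0-2, 10 and 20 DAP were 0.139, 116 and 3099 TPM. Sobic.006G167700 had 12996 TPM at 30 DAP and 0.0465 TPM at 1-2 DBP, a log2 difference of 13.60. That size depends on the pseudocount and was 16.44 with 0.1 and 11.33 with 5. Its levels at 0-2, 10 and 20 DAP were 0.291, 1241 and 7808 TPM. Sobic.010G142900, which had the second highest 30 DAP level among the genes nearly absent from the pistil, had 13023 TPM at 30 DAP and 0.0655 TPM at 1-2 DBP. Its levels in between were 0.0649, 51.6 and 2387 TPM. The 3 IDs ranked 9, 10 and 11 in the 30 DAP column. Their similar levels there follow from the naming rules, which with pistil levels near 0 pick by the 30 DAP level. Each ID was higher at 10, 20 and 30 DAP than at the stage before.

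The largest negative differences belonged to Sobic.003G369800 and Sobic.001G459400, which also had the highest pistil levels among genes nearly absent at 30 DAP. Sobic.003G369800 was listed at 0 at 30 DAP and had 2132 TPM at 1-2 DBP. At 0-2 and 10 DAP it had 230 and 0.412 TPM, and at 20 DAP it was again listed at 0. Sobic.001G459400 had 0.0109 TPM at 30 DAP and 1542 TPM at 1-2 DBP, a log2 difference of -10.58, which was -13.76 with a pseudocount of 0.1 and -8.27 with 5. Its levels between were 689, 204 and 27.2 TPM at 0-2, 10 and 20 DAP. Both IDs were lower at each stage than at the one before as far as they were not at 0, the first with its main step by 10 DAP and the second in steps spread over the whole series.

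**Figure D3:**
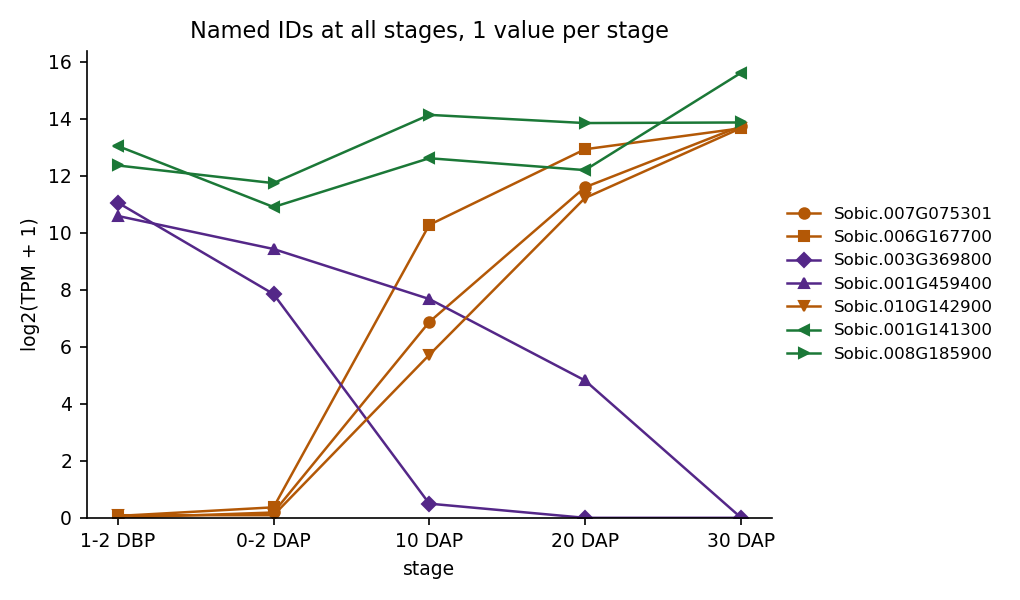
The 7 IDs named by the ranking rules are plotted at all 5 stages as log2(TPM + 1), 1 value per stage and no error. The 3 orange IDs lie near 0 at 1-2 DBP and 0-2 DAP and between 12996 and 13643 TPM at 30 DAP, the 2 purple IDs take the opposite course, and the 2 green IDs stay at 1916 TPM or more at every stage.

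Genes abundant at 30 DAP had a high pistil level more often than the reverse, in lists of unequal size. Of the 890 genes of at least 100 TPM at 30 DAP, 493 (55.4%) also had at least 100 TPM at 1-2 DBP, 182 had 10 to under 100 TPM there, 101 had 1 to under 10 TPM, 60 had 0.1 to under 1 TPM and 54 (6.07%) were under 0.1 TPM. Of the 1902 genes of at least 100 TPM at 1-2 DBP, the same 493 make up 25.9%. Another 939 (49.4%) had 10 to under 100 TPM at 30 DAP, 333 had 1 to under 10 TPM, 96 had 0.1 to under 1 TPM and 41 (2.16%) were under 0.1 TPM. Lists of equal length do not depend on the scaling. Among the 890 highest genes of each stage, the 30 DAP list shared 366 genes with 1-2 DBP and 309, 373 and 522 with 0-2, 10 and 20 DAP. The overlap with the pistil was thus larger than that with the days just after pollination, and 1 value per stage gives no error for that gap. Among the 100 highest genes, 13 were shared with 1-2 DBP and 8, 13 and 43 with 0-2, 10 and 20 DAP. Over all 22256 genes, Spearman's rho of the 30 DAP column was 0.527 with 1-2 DBP and 0.474, 0.654 and 0.770 with 0-2, 10 and 20 DAP. The 1-2 DBP and 0-2 DAP columns were close to each other, with a rho of 0.918. These values are a description across genes that share columns and were kept by their level at the ends alone.

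**Figure D4:**
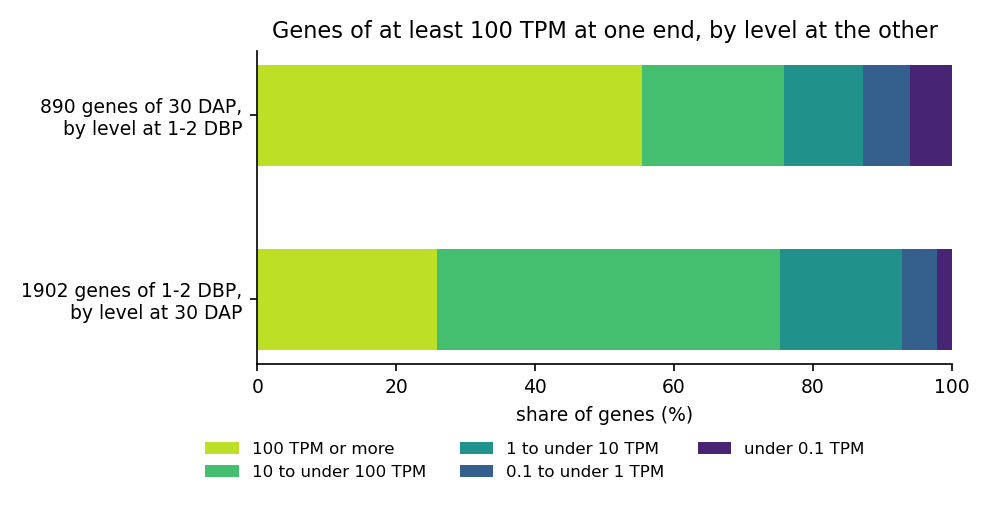
Stacked bars give the share (%) of the genes of at least 100 TPM at one end that fall into each level class at the other end, with 890 genes of 30 DAP in the upper bar and 1902 genes of 1-2 DBP in the lower bar. The class of 100 TPM or more takes 55.4% of the upper bar and 25.9% of the lower bar.

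The 493 genes abundant at both ends held 30.9% of the 30 DAP total and 23.4% of the 1-2 DBP total. Their smaller value was 100.1 TPM in the gene just inside the limit and 99.8 TPM in the gene just outside. Their median level was 236 TPM at 30 DAP and 281 TPM at 1-2 DBP. As deposited, 54 of them were at least 2-fold higher at 30 DAP, 101 were lower and 338 lay within 2-fold. Over all genes compared, 8.26% were higher and 71.5% lower. The median difference was -0.19 beside -1.79 for all genes compared. With median-ratio factors the count was 410 higher and 0 lower, beside 26.1% and 28.6% of all genes. The median was then 1.99 beside -0.17. Quantile normalization left 80 higher and 98 lower, beside 21.7% and 28% of all genes, with a median of 0.14. The sign of the median thus depends on the scaling. The limit of 100 TPM at both ends leaves out genes that are low at 1 end. By construction this keeps large differences out of the set, so the gap to all genes is not read as a result.

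Most of the 493 stayed abundant in between, and 310 of them had at least 100 TPM in all 5 stages. All 493 were at or above 1 TPM at each stage. The 20 DAP value was the lowest of the 5 in 272 genes, and 88 genes were lowest at 0-2 DAP, 66 at 10 DAP, 61 at 30 DAP and 6 in the pistil. The limit of 100 TPM applies to the ends alone and so favours a lowest value in between. With median-ratio factors the lowest stage was 0-2 DAP in 335 genes, and 73, 57, 27 and 1 genes were lowest at 1-2 DBP, 10, 20 and 30 DAP. The highest value was that of 30 DAP in 156 genes as deposited and 446 scaled, and that of the pistil in 198 and 10. In time order from the pistil, their summed share of TPM was 23.4, 16.5, 19.3, 16.0 and 30.9%. In 23 genes every stage between was under 50% of the smaller end as deposited, and in 17 after median-ratio scaling.

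The 2 genes with the highest smaller-of-both level were Sobic.001G141300 and Sobic.008G185900. Sobic.001G141300 ranked first in both columns, with 49903 TPM at 30 DAP and 8455 TPM at 1-2 DBP, 5.90 times as much at 30 DAP. Its log2 difference was 2.56 as deposited, 4.76 with median-ratio factors and 0 under quantile normalization, where equal ranks give equal values. It ranked 30, 14 and 24 at 0-2, 10 and 20 DAP. Sobic.008G185900 had 14981 TPM at 30 DAP and 5263 TPM at 1-2 DBP, with log2 differences of 1.51 unscaled and 3.70 with median-ratio factors. In between it had 3425, 18026 and 14769 TPM. Its sign turned after quantile normalization, at -0.92, where its rank of 6 at 30 DAP against 3 at 1-2 DBP sets the value.

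Some of these genes were far from steady, and the IDs here were chosen after their values were seen. In 4 genes the 30 DAP level was at least 10 times the pistil level although both passed 100 TPM. Sobic.003G117000 had 14822 TPM at 30 DAP and 195 TPM at 1-2 DBP, with values between 123 and 378 TPM at the other stages, so most of its difference lay between 20 and 30 DAP. Sobic.003G081900 had 8764 TPM at 30 DAP and 149 TPM at 1-2 DBP, and 2766 TPM at 20 DAP. Sobic.001G426000 had 1406 TPM at 30 DAP and 107 TPM at 1-2 DBP, and 714 TPM at 20 DAP. These 2 IDs were already well above their pistil level at 20 DAP. Sobic.009G116700 had 32535 TPM at 30 DAP and 1421 TPM at 1-2 DBP, with 110, 21.5 and 1010 TPM at 0-2, 10 and 20 DAP. Its lowest value was thus the one at 10 DAP.

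Another 4 of the 493 dropped under 10 TPM at a stage between the ends. Sobic.001G377000 had 220 TPM at 30 DAP and 201 TPM at 1-2 DBP, with 20.3 TPM at 0-2 DAP and a lowest value of 4.21 TPM at 10 DAP. Sobic.004G279700 had 145 TPM at 30 DAP and 149 TPM at 1-2 DBP, with 25.7, 8.42 and 16.9 TPM at 0-2, 10 and 20 DAP. Sobic.003G354000 had 119 TPM at 30 DAP and 125 TPM at 1-2 DBP, with 45.8, 16.4 and 6.29 TPM between. As deposited, these 3 IDs had nearly equal TPM at both ends and a low middle. In the order given, their log2 differences were 2.31, 2.14 and 2.10 with median-ratio factors. Under quantile normalization they were 0.56, 0.71 and 0.77. Sobic.002G403966 had 104 TPM at 30 DAP and 436 TPM at 1-2 DBP, with 214 TPM at 0-2 DAP and a lowest value of 1.55 TPM at 20 DAP.

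A set of 371 genes was found at 30 DAP with at least 1 TPM and was under 0.1 TPM at 1-2 DBP, where 106 of them were listed at 0. They held 13.0% of the 30 DAP total and 0.00131% of the 1-2 DBP total. The highest pistil value inside the limit was 0.0999 TPM and the lowest outside 0.1008 TPM. Their levels at 30 DAP were uneven. The median was 3.95 TPM, 103 genes were under 2 TPM, 120 reached 10 TPM, 54 reached 100 TPM and 26 reached 1000 TPM. The 10 highest held 61.9% of the TPM of the set at 30 DAP. For the genes of 1 to 2 TPM the contrast with the pistil is small in TPM, and its precision is not known because TPM keeps no read depth.

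Most of the 371 were present before the last stage. Their first stage of at least 1 TPM was 0-2 DAP in 23 genes, 10 DAP in 154, 20 DAP in 89 and 30 DAP in 105. Of these last 105 genes, 10 had at least 10 TPM at 30 DAP, and the highest had 155 TPM. The share of TPM in the set was 0.00131, 0.0218, 25.1, 39.5 and 13.0% from 1-2 DBP to 30 DAP in time order. It was split by the stage of the highest value, and that split itself largely sets the direction in which each part moves. The 246 genes highest at 30 DAP held 0.227, 3.40 and 11.8% of TPM at 10, 20 and 30 DAP. The 125 genes highest at an earlier stage held 24.9, 36.1 and 1.17% at these stages. In 32 genes the 20 DAP value was at least 10 times the 30 DAP value. The contrast with the pistil therefore includes genes that had already passed their highest level. After median-ratio scaling 271 of the 371 genes had their highest value at 30 DAP.

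The opposite set was larger as deposited and held a smaller share of TPM. It had 2335 genes with at least 1 TPM at 1-2 DBP and under 0.1 TPM at 30 DAP, where 1174 were listed at 0. The gap in size narrowed under other scalings, to 776 genes of 30 DAP and 1296 of 1-2 DBP with median-ratio factors, and 938 and 1030 under quantile normalization. The 2335 genes held 0.00562% of the 30 DAP total and 3.55% of the 1-2 DBP total. The highest 30 DAP value inside the limit was 0.09996 TPM and the lowest outside 0.10002 TPM. Their median pistil level was 4.26 TPM, 578 genes were under 2 TPM, 597 reached 10 TPM, 41 reached 100 TPM and 3 reached 1000 TPM. The 10 highest held 24.4% of the TPM of the set at 1-2 DBP. Over all genes, 293 were listed at 0 at 30 DAP with at least 10 TPM at 1-2 DBP, and 32 were listed at 0 at 1-2 DBP with at least 10 TPM at 30 DAP.

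These 2335 pistil genes were last seen at different stages. The last stage with at least 1 TPM was 1-2 DBP in 308 genes, 0-2 DAP in 847, 10 DAP in 585 and 20 DAP in 595. At 0-2 DAP 1962 of them (84.0%) still had at least 1 TPM, at 10 DAP 1153 (49.4%) and at 20 DAP 595 (25.5%). The highest value was that of the pistil in 1058 genes, and 1059, 182 and 36 genes were highest at 0-2, 10 and 20 DAP. With median-ratio factors these counts were 954, 919, 354 and 108. In 157 genes the level at 0-2 DAP was already at least 10 times lower than in the pistil, and 541 genes stayed at or above 1 TPM at all 3 stages between the ends. From 1-2 DBP to 30 DAP the share of TPM in the set was 3.55, 4.11, 1.54, 0.520 and 0.00562% in time order.

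**Figure D5:**
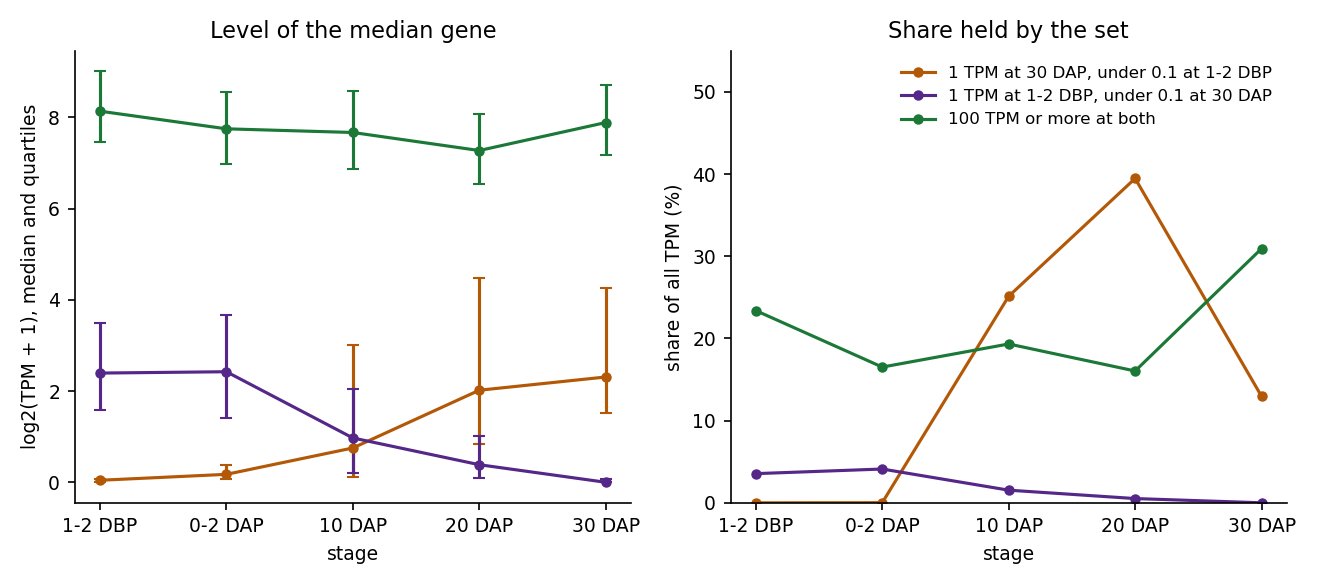
For the 371 genes of 30 DAP (orange), the 2335 genes of 1-2 DBP (purple) and the 493 genes abundant at both ends (green), the left panel gives the median log2(TPM + 1) over genes with bars for the quartiles over genes, and the right panel the summed share of all TPM (%), at each of the 5 stages. The orange share is highest at 20 DAP, with 39.5%, and the green share at 30 DAP, with 30.9%.

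The sets also differed in where their IDs lie in the table, whose order follows the ID numbers. IDs beginning with Sobic.005 were 4.85% of all genes compared, 10.2% of the 371 genes of 30 DAP, with 38 genes, 6.77% of the 2335 genes of 1-2 DBP and 2.64% of the 493 genes abundant at both ends. IDs beginning with Sobic.K, outside the 10 numbered prefixes, were 110 of the genes compared. Of these 110, 4 belonged to the 30 DAP set, 55 to the 1-2 DBP set and 0 to the genes abundant at both ends. A gene of the same set stood directly beside it in ID order for 13.5% of the 371 genes, 26.2% of the 2335 genes and 12.2% of the 493 genes. Each gene has 2 neighbours, and 2 times the share of each set in the table is 2.37%, 14.9% and 3.15%. The longest runs of side-by-side IDs were 4 genes from Sobic.002G065500 to Sobic.002G065800 in the 30 DAP set and 6 genes from Sobic.008G027800 to Sobic.008G028300 in the 1-2 DBP set. Neighbours can be near-identical copies that share reads, and how such reads were counted is not given in the sources used here.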

How the data were processed

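RNA-seq of 14 libraries in 5 stages was deposited as 1 table. Per the file headers, the authors give TPM, a level corrected for gene length. There is 1 column per stage, and each column summed to 1000000. How the libraries of a stage were combined is not stated, and depth per library is not known from TPM. The submitters' processing notes list DESeq2, HISAT2 and featureCounts 2.2.0 but not what each was used for. Build and annotation of the genome: not given in the sources used here. Per the labels' protocols, NEBNext directional and TruSeq stranded kits were both used, with no kit assigned to a library.

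From that table, differences of log2(TPM + 1) were computed for genes of at least 1 TPM at either end, with 2-fold as the limit. Abundant means at least 100 TPM in both columns, and not found means under 0.1 TPM. Median-ratio factors were the median ratio of each column to the geometric mean, over genes above 0 in all 5 columns. With 1 value per stage no test, SD or n can be given. The code was tested on simulated columns in which nearly all genes were unchanged, a setting that meets the assumption of median-ratio scaling. Its pass condition covered the median-ratio values alone, so it does not show which scaling is right for these columns. Named IDs are the 2 largest differences in each direction among genes of at least 20 TPM at the higher end, the 2 highest of each set found at 1 end, and the 2 highest by smaller value among genes abundant at both. Gene lists by description were planned and could not be used without names. The rules and sets were chosen with earlier results of these data known. Alternatives were pseudocounts, filters, scalings, and other limits. Analyses used Python 3.11.15, numpy 2.4.6 and pandas 2.3.3.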

Additional observations from a re-analysis of the deposited data

How the results depend on the processing

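The split between higher and lower genes moves with the scaling. The 1839 higher and 15908 lower genes became 5816 and 6355 with median-ratio factors over 5 columns, 5550 and 6410 with factors over the 2 columns alone, and 4831 and 6224 with quantile normalization. Without the 100 most abundant genes 2987 were higher and 12296 lower. A pseudocount of 5 left 1151 higher, and at a 4-fold limit 963 were higher and 9800 lower. The other alternatives for these counts, including both filters and a pseudocount of 0.1, moved them by less than 1.5 times. The counts of genes found at 1 end or abundant at both follow their limits. Abundant at both were 1065 genes at 50 TPM and 235 at 200 TPM. Genes of 30 DAP not found at 1-2 DBP numbered 106 when listed at exactly 0 there, 797 at under 0.5 TPM, 120 with at least 10 TPM at 30 DAP, 776 with median-ratio factors over 5 columns and 938 under quantile normalization. Genes of 1-2 DBP not found at 30 DAP numbered 1174, 4718, 597, 1296 and 1030 under the same 5 alternatives. Of 28 recomputed differences of the 7 IDs named by rank, 19 changed by over 1.5-fold, and 1 that had passed 2-fold changed sign, Sobic.008G185900 at -0.92 after quantile normalization. The medians of the sets under other scalings were added after the data were seen. No paired analysis was possible because libraries have no columns of their own, and leaving out each replicate was not run for the same reason. Zero was listed for 6744 genes at 30 DAP and 1902 at 1-2 DBP, and with depth unknown a true absence and a missed transcript look alike.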
